A study of Mus musculus with 23 samples.

Results

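Mt1 and Mt2 encode metallothioneins, and their transcripts were followed in pools of whole mouse embryos through every probe that the array's probe-to-gene table assigns to either symbol. Of 36227 probes, 2 met this rule, 1 for Mt1 and 1 for Mt2, out of 18069 genes named on the array. The embryos, of day 8.5, came from crosses of p53 heterozygous mice and had been exposed for 10 minutes to a water bath at 43 °C (heat) or 38 °C (control). They were then genotyped, and 3 to 7 whole embryos of the same genotype and bath were pooled for each RNA sample. The groups were p53 -/- (null) heat with 3 pools, null control with 4, p53 +/- (heterozygous) heat and control with 4 each, and p53 +/+ (wildtype) heat and control with 4 each. All 23 pools thus share the cross and a bath of that length, and differ in p53 genotype and bath temperature. Pools are called here by the letters of the labels, A to D. The labels call them biological replicates without naming litters, so the p-values below measure the spread between these pools. The time from bath to collection is not given in the sources used here.

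Metallothioneins are small cysteine-rich proteins that bind zinc and copper, and can also take up cadmium. Their genes are known to be switched on by the metal-sensing transcription factor MTF-1, which binds short metal response elements in their promoters, and also by glucocorticoids, oxidants and a range of other stresses. In the mouse embryo Mt1 and Mt2 are known to be strongly expressed in the visceral endoderm and visceral yolk sac, the tissue that feeds the embryo before the placenta works. The family has 4 genes in the mouse. Mt1 and Mt2 are expressed in many tissues, Mt3 mainly in brain and Mt4 in stratified squamous epithelium.

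The 4 genes lie together on chromosome 8 (RefSeq, GRCm38.p6). Mt4 spans chr8:94137204-94139031, Mt3 chr8:94152607-94154148, Mt2 chr8:94172618-94173567 and Mt1 chr8:94178883-94180327. The promoters of Mt1 and Mt2 are shown because they carry the metal response elements through which these genes are known to be regulated together. Both are given for the plus strand, 5′ to 3′, as 280 bases that end 30 bases after the start used in RefSeq's promoter table. For Mt1 that start lies inside the gene's interval given above. The windows are chr8:94178839-94179118 for Mt1 and chr8:94172368-94172647 for Mt2, and capitals mark matches to the metal response element core.
Mt1: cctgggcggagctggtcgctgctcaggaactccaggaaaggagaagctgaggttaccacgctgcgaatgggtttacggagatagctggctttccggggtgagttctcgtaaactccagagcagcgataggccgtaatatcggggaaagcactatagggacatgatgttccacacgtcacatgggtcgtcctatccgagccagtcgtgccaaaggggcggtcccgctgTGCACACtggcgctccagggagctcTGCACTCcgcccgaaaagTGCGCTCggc
Mt2: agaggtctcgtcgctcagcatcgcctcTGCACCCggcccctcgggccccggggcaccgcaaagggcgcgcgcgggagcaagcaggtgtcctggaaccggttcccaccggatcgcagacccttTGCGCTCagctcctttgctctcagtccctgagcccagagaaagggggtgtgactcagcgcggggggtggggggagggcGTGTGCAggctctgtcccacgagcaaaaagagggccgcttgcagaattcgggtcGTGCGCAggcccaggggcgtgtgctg

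The core was searched as TGCACNC or TGCGCNC on both strands, over 250 bases before and 50 after the start. Mt1 had 3 matches, whose first bases lay at -23, 3 and 21 from the start used, all on the plus strand. Mt2 had 4 matches, at -223 and -128 on the plus strand and at -50 and 5 on the minus strand. Among 32851 promoters of the same length in the RefSeq table, 25.7% held at least 1 match, 1.97% at least 3 and 0.517% at least 4. The antioxidant response element core TGACNNNGC matched once in the Mt2 window, at -79, and not in the Mt1 window. It was in 12.4% of all promoters. The heat shock element unit GAANNTTC, in 7.86% of promoters, was in neither window. The TATA box core TATAAA, in 13.6% of promoters, was in neither window as well. These matches are letters in a window and say nothing of binding by a factor. Positions are counted from the starts used, of which that of Mt1 lies inside the gene's interval. Whether transcription in these embryos begins at the starts used was not tested. The matches therefore do not set the promoters of Mt1 and Mt2 apart. Bases beyond the windows were not searched, so an element absent here may lie outside them.

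Mt1 and Mt2 transcripts were both higher after the 43 °C bath. Mt1 rose in each of the 3 genotypes, by 2.07-fold to 2.76-fold, and on no heat pool did its level reach down to that of any control pool. The change of Mt2 was smaller in measured intensity: it rose by 1.99-fold in null embryos and by 1.63-fold on average over the genotypes, and its change in heterozygous and wildtype embryos did not pass the threshold. No difference between p53 genotypes passed the threshold for either gene. Levels are quantile-normalized array intensities in relative units, log2 fold changes are heat over control ± SE, and adjusted p-values are from limma after Benjamini-Hochberg adjustment over the 22743 probes tested, with 0.05 as threshold. Because each sample is RNA of whole embryos, more cells of a type that expresses a gene and more RNA per cell cannot be told apart.

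In null embryos Mt1 was at 64.8, 74.8 and 66.9 in heat pools A, B and C, against 26.1, 20.3, 26.8 and 27.0 in control pools A to D. The heat pools averaged 68.9 ± 5.27 (SD, n = 3) and the control pools 25.0 ± 3.17 (SD, n = 4). All heat pools lay far above all control pools, and control pool B was the lowest of the series. In null embryos 9.19% of all probes had every heat pool above every control pool. The rise was 1.47 ± 0.16 (95% interval 1.14 to 1.79; limma adjusted p = 2.25e-05). At that threshold 5.2% of all probes were called in null embryos, and 2.7% of all probes were called upward.

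In heterozygous embryos Mt1 was at 63.3, 78.6, 54.9 and 70.7 in heat pools A to D, against 29.6, 30.8, 27.9 and 25.8 in control pools A to D. The means were 66.9 ± 10.1 in heat pools and 28.5 ± 2.20 in control pools (SD, n = 4 each), and the control pools were close to each other. Mt1 rose by 1.22 ± 0.15 (95% interval 0.92 to 1.52; limma adjusted p = 0.000101). Of all probes, 2.27% were called, 0.708% upward and 1.56% downward.

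In wildtype embryos Mt1 was at 68.4, 63.0, 47.2 and 46.7 in heat pools A to D, against 21.7, 35.2, 27.3 and 24.9 in control pools A to D. Heat pools A and B lay within the range of the other genotypes' heat pools, while C and D were the lowest heat pools of the series, though still above wildtype control B, the highest control. The means were 56.3 ± 11.1 in heat pools and 27.3 ± 5.75 in control pools (SD, n = 4 each). All heat pools were above all control pools of this genotype, as for 7.25% of all probes. The rise was 1.05 ± 0.15 (95% interval 0.74 to 1.35; limma adjusted p = 0.000331), in a comparison that called 3.01% of all probes, 1.24% upward.

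**Figure D1:**
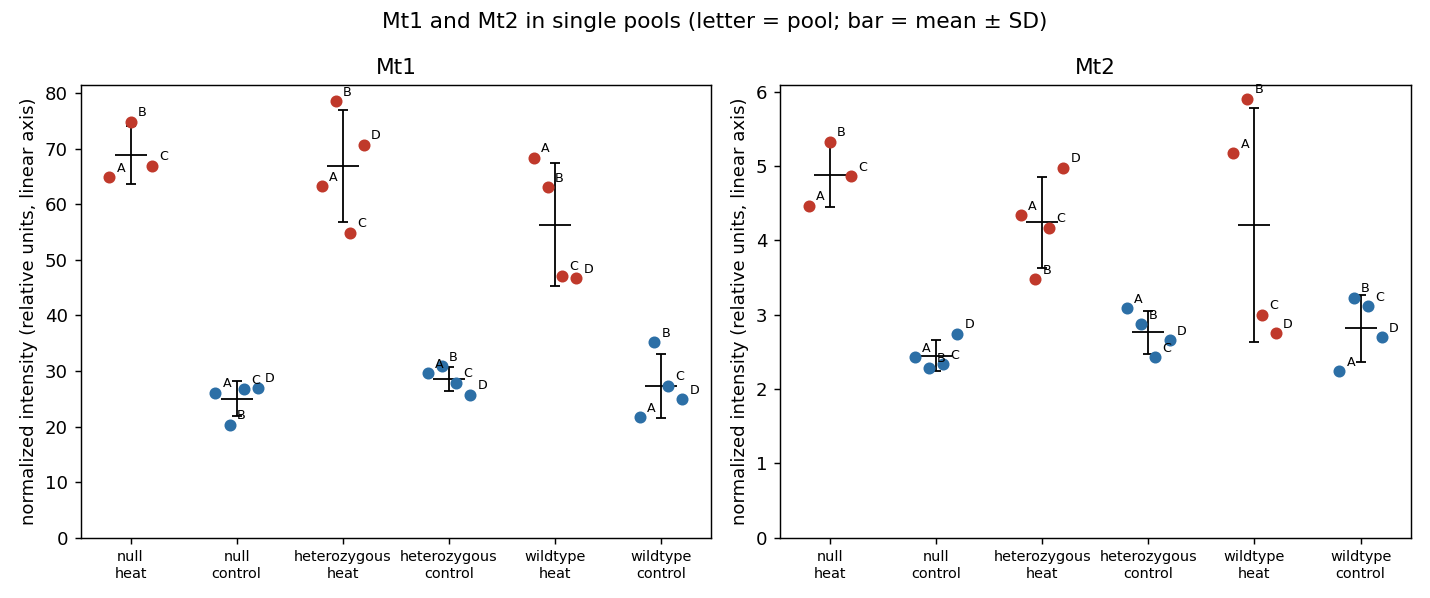
Normalized intensity (relative units, linear axes) of Mt1 (left) and Mt2 (right) in each pool, for heat (red) and control (blue) pools of null, heterozygous and wildtype embryos; letters name pools and bars show mean ± SD. All 11 heat pools exceed all 12 control pools for Mt1, while for Mt2 wildtype heat pools C and D lie among the wildtype controls.

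Over the 3 genotypes with equal weight, Mt1 rose by 1.24 ± 0.09, or 2.37-fold (95% interval 1.06 to 1.42; limma adjusted p = 6.17e-09), in a comparison that called 11.9% of all probes. Its change ranked 9th from the highest of the 22743 probes tested, and 25th, 8th and 31st in null, heterozygous and wildtype embryos. The lowest heat pool stood at 46.7 and the highest control pool at 35.2. Such a complete separation of all 11 heat pools above all 12 control pools was found for 58 probes, or 0.255%. Mt1 was also 1 of 40 probes (0.176%) that passed the threshold upward in all 3 genotypes. In the intensities as deposited, the heat pools ran between 41.4 and 79.4 and the control pools between 19.8 and 34.3, again without overlap.

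Mt2, the neighbouring gene, was measured by a probe of its own. Levels of different probes are not comparable, so each gene is set only against itself. In null embryos Mt2 was at 4.47, 5.33 and 4.86 in heat pools A, B and C, against 2.43, 2.29, 2.33 and 2.74 in control pools A to D. Each heat pool was above each control pool, as was so in null embryos for 9.19% of all probes. The means were 4.88 ± 0.432 in heat pools (SD, n = 3) and 2.45 ± 0.205 in control pools (SD, n = 4). Mt2 rose by 1.0 ± 0.20 (95% interval 0.58 to 1.41; limma adjusted p = 0.00883). Without null heat pool B the change was 0.93 and the adjusted p 0.0508.

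In heterozygous embryos Mt2 was at 4.34, 3.48, 4.17 and 4.98 in heat pools A to D, against 3.09, 2.87, 2.43 and 2.66 in control pools A to D. The heat pools were above the control pools without overlap, as for 3.89% of all probes in these embryos. The means were 4.24 ± 0.617 in heat pools and 2.76 ± 0.284 in control pools (SD, n = 4 each). The difference of 0.61 ± 0.19 did not pass the threshold over all probes (95% interval 0.23 to 1.0; limma adjusted p = 0.0899), and did so when wildtype heat pool B was left out of the shared fit (adjusted p = 0.0490).

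In wildtype embryos Mt2 was at 5.17, 5.91, 3.00 and 2.75 in heat pools A to D, against 2.24, 3.23, 3.11 and 2.70 in control pools A to D. Heat pools A and B were among the 3 highest values of the series, and C and D lay inside the range of the control pools. The heat pools therefore averaged 4.21 ± 1.57 with the widest spread of any group, and the control pools 2.82 ± 0.450 (SD, n = 4 each). The difference of 0.51 ± 0.19 did not pass the threshold (95% interval 0.13 to 0.90; limma adjusted p = 0.143). Without wildtype heat pool D it was 0.69 and passed (adjusted p = 0.0457), and without pool B it was 0.33 and did not (adjusted p = 0.330).

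Over the 3 genotypes Mt2 rose by 0.71 ± 0.11, or 1.63-fold (95% interval 0.48 to 0.94; limma adjusted p = 0.00017), which ranked 62nd from the highest among all probes. Of the 11 heat pools, 9 lay above every control pool. With 1 pool left out at a time the mean change ran between 0.65 and 0.77 and stayed past the threshold each time.

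**Figure D2:**
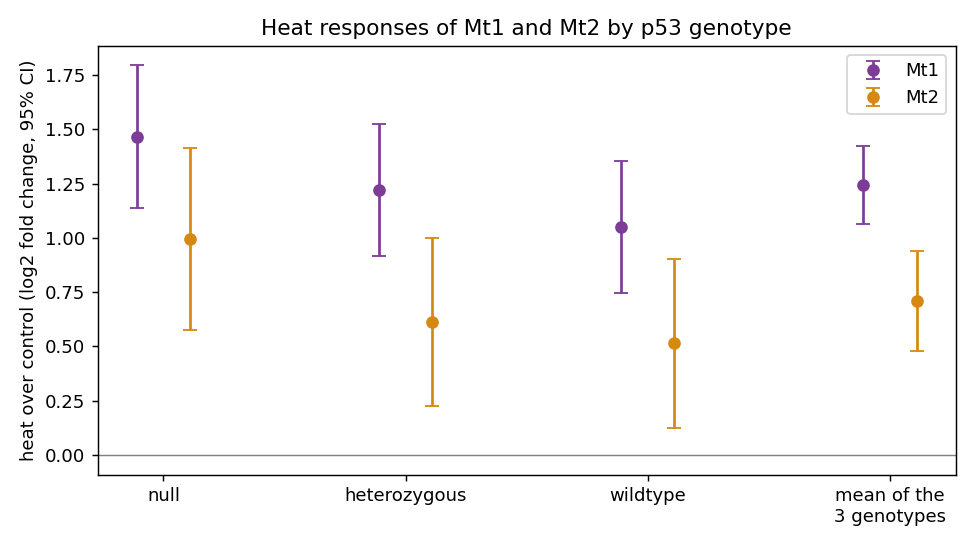
Heat responses (log2 fold change, heat over control, with 95% confidence intervals from limma) of Mt1 and Mt2 in null, heterozygous and wildtype embryos and as the mean of the 3 genotypes. The Mt1 points run between 1.05 and 1.47 and the Mt2 points between 0.51 and 1.0, and the intervals of the genotypes overlap for each gene.

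Ordered by their mean log2 level, the Mt1 groups ran from null heat, the highest, through heterozygous heat, wildtype heat, heterozygous control and wildtype control to null control. Neighbours in this order overlapped in their pools at every step except that between wildtype heat and heterozygous control, which differed by 0.96. For Mt2 the order was null heat, heterozygous heat, wildtype heat, wildtype control, heterozygous control and null control, and the pools of neighbouring groups overlapped at every step. Null embryos thus held the highest mean with heat and the lowest mean in control for both genes. These positions rest on differences that did not pass the threshold, as follows.

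Among heat pools, Mt1 was higher by 0.31 in null than in wildtype embryos (95% interval -0.02 to 0.64; limma adjusted p = 0.275), in a comparison that called 0.541% of all probes. The corresponding Mt2 difference was 0.29 (95% interval -0.13 to 0.71; limma adjusted p = 0.418). The upper ends of these intervals are a level 1.55-fold higher for Mt1 and 1.63-fold higher for Mt2, and the lower ends lie below 0 for both. In the values as deposited, without normalization between arrays, the Mt1 difference was 0.53 and passed (adjusted p = 0.0494), in a setting that called 1577 probes against 123 with normalization.

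Heterozygous heat pools were above wildtype heat pools by 0.26 for Mt1 (limma adjusted p = 0.533) and by 0.08 for Mt2 (0.929), where 0.0967% of all probes were called. Null heat pools differed from heterozygous heat pools by 0.05 for Mt1 (limma adjusted p = 0.974) and 0.21 for Mt2 (0.923), with 0.0044% called. In the control bath, null minus wildtype was -0.11 for Mt1 (limma adjusted p = 0.670) and -0.19 for Mt2 (0.541), although 8.04% of all probes were called there. Heterozygous minus wildtype was 0.08 for Mt1 (limma adjusted p = 0.943) and -0.02 for Mt2 (0.993) in control pools, with 0.0044% called. Null minus heterozygous was -0.19 for Mt1 (limma adjusted p = 0.480) and -0.17 for Mt2 (0.641), with 0.044% called. In the control bath neither metallothionein was among the genes that separated null from wildtype embryos.

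The heat response itself was larger in null than in wildtype embryos by 0.42 for Mt1 (95% interval -0.03 to 0.86; limma adjusted p = 0.254) and by 0.48 for Mt2 (95% interval -0.09 to 1.05; limma adjusted p = 0.296). Neither passed, in a comparison that called 0.976% of all probes. Heterozygous minus wildtype responses differed by 0.17 for Mt1 (95% interval -0.26 to 0.60; limma adjusted p = 0.947) and by 0.10 for Mt2 (95% interval -0.45 to 0.65; limma adjusted p = 0.976). There limma called 0 probes, with 1355 at an unadjusted p under 0.05. Null minus heterozygous responses differed by 0.25 for Mt1 (limma adjusted p = 0.572) and 0.38 for Mt2 (0.497), with 0.0176% called. The interval for null minus wildtype embryos reaches a ratio of 1.82-fold between the Mt1 responses and of 2.07-fold between the Mt2 responses.

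Whether both probes changed by the same amount was asked within each pool, through the difference between log2 Mt1 and log2 Mt2. Its size has no meaning of its own, since the probes differ, and a shift between baths is an unequal change of the measured intensities. Whether both probes respond alike to their transcripts at their different intensities was not tested. The shift, heat minus control, was 0.47 in null, 0.61 in heterozygous and 0.53 in wildtype embryos. All 3 null and all 4 heterozygous heat pools had a higher difference than every control pool of their genotype, and 3 of 4 wildtype heat pools did. Exact two-sided permutation tests gave p = 0.0571, 0.0286 and 0.0571, each 0.0571 after Benjamini-Hochberg adjustment over the 3 genotypes. The smallest p that 3 against 4 pools allow is 0.0571, and that of 4 against 4 pools is 0.0286. Taken over the 3 genotypes at once, in a test added after the data were seen, the shift was 0.54, or 1.45-fold, with an exact permutation p of 2.33e-05 over 171500 relabellings of pools within genotypes. In the deposited values it was 0.46 (exact permutation p = 3.5e-05). The files hold no probe sequences, so whether either probe also detects the other transcript was not tested.

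**Figure D3:**
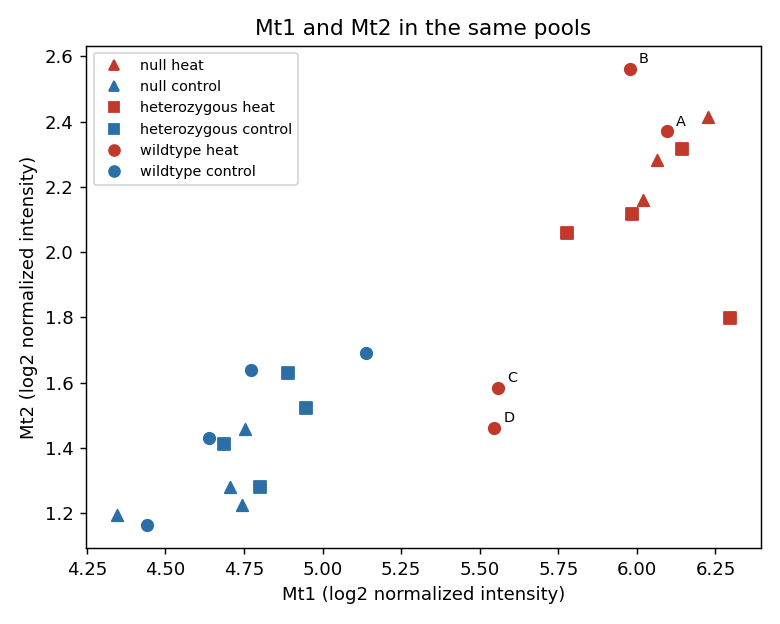
Mt2 against Mt1 (log2 normalized intensity on both axes) in the same 23 pools, with symbols for genotype, red for heat and blue for control; letters mark the wildtype heat pools. Control pools form a band at the lower left, most heat pools lie at the upper right, and wildtype heat pools C and D lie between them, with Mt2 at the level of controls.

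Among the 12 control pools Mt1 and Mt2 varied together. Pearson's r was 0.77 (permutation p = 0.00204, adjusted p = 0.0122 over 6 relations) and Spearman's rho 0.755 (permutation p = 0.00626, adjusted p = 0.0188). Without wildtype control B and null control B, the pools farthest from the median of Mt1, r was 0.64. Among the 11 heat pools r was 0.65 (permutation p = 0.0428, adjusted p = 0.0846) and rho 0.473 (permutation p = 0.147). Without wildtype heat C and D r was -0.097, so the relation in heat pools rested on those pools. Null heat B, with the highest Mt1 of its group, also had the highest Mt2, whereas heterozygous heat B combined the highest Mt1 of the series with the lowest Mt2 of its group.

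The split of the wildtype heat pools did not follow the inducible heat shock gene Hspa1a, which encodes an Hsp70 chaperone. Hspa1a was at 78.7, 122.5 and 102.3 in wildtype heat pools A, C and D and at 0.877 in pool B, against 0.696 to 1.04 in wildtype control pools. Pool B, without a high Hspa1a level, had Mt1 at 63.0 and the highest Mt2 of the series. Among null heat pools Hspa1a was at 120.0 in B and at 1.77 and 2.10 in A and C, against 0.666 to 0.947 in null control pools, while Mt1 was high in all 3 heat pools. In heterozygous heat pools Hspa1a ran between 1.49 and 2.09, against 0.496 to 0.807 in heterozygous control pools, and Mt1 was nonetheless between 54.9 and 78.6 with heat. Hmox1, the heme oxygenase induced by oxidants and heavy metals, was at 10.8, 11.98 and 11.02 in wildtype heat pools A, C and D and at 5.27 in B, against 4.98 to 6.29 in wildtype control pools. Its high and low wildtype heat pools were those of Hspa1a and not those of Mt1 and Mt2. Hspb1, a small heat shock protein, lay between 63.5 and 95.9 in all heat pools, against 15.2 to 20.2 in the 11 control pools with a value.

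Genes that move and sense metals were tested as a list of 25 measured members, of 35 listed. In the mean heat response 2 rose and 0 fell, against 4.98% and 6.89% of all probes, and the list's median was 0.05, against -0.00082 over all probes. Slc39a7, a zinc transporter of the endoplasmic reticulum and Golgi, rose by 0.26 ± 0.05 (limma adjusted p = 0.00072). Slc30a1, the plasma membrane zinc exporter that is a known target of MTF-1, rose by 0.31 ± 0.10 (limma adjusted p = 0.0425). As deposited, Slc30a1 ran between 1.42 and 2.51 in null heat pools against 1.28 and 1.66 in null control pools, so its groups overlapped.

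In null embryos 4 metal-handling genes rose and 0 fell, against 2.7% and 2.5% of all probes, with a list median of 0.22 against -0.04. They were Slc31a2 by 0.95 ± 0.19 and Slc31a1 by 0.69 ± 0.18, both copper transporters, Slc30a6, a zinc transporter of the Golgi, by 0.53 ± 0.12, and Slc39a7 by 0.39 ± 0.09 (limma adjusted p between 0.00801 and 0.0353). In heterozygous embryos limma called 0 members, where 0.708% of all probes were called upward and 1.56% downward. In wildtype embryos it also called 0, where 1.24% were called upward and 1.77% downward. The list medians were 0.01 and -0.11, against 0.01 over all probes in each. Differences between genotypes in these counts were not tested. Slc31a2 was 0.24 in heterozygous and -0.29 in wildtype embryos. The probe of Mtf1, the gene of MTF-1, was dim and too often empty to be tested, at 0.18 to 0.527 as deposited in heat pools and with a value in 3 of 12 control pools.

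Of 16 measured genes of the oxidative stress response, 2 rose and 0 fell in the mean heat response, against 4.98% and 6.89% of all probes, with a list median of 0.10. Hmox1 rose by 0.66 ± 0.13 (limma adjusted p = 0.00219). Sqstm1, an autophagy receptor induced by NRF2, rose by 0.52 ± 0.06 (limma adjusted p = 8.9e-06) and was also the single member called in each genotype. Gclm, which encodes the modifier subunit of the enzyme that starts glutathione synthesis, was at -0.01 ± 0.13, and Nqo1, a quinone reductase, at 0.11 ± 0.10. Of 18 measured heat shock genes 5 rose and 0 fell, against the same 4.98% and 6.89% of all probes, with a median of 0.19: Hspb1 by 2.14 ± 0.06, Hspa1a by 3.23 ± 0.69, Hspa1b by 1.77 ± 0.48, Hspb8 by 0.78 ± 0.13 and Hsp90aa1 by 0.43 ± 0.05 (limma adjusted p between 5.27e-16 and 0.0175). The mean Mt1 change of 1.24 thus lay above those of Hspb8 and Hsp90aa1 and below those of Hspa1a, Hspb1 and Hspa1b. Within genotypes 2 heat shock genes rose in null embryos, where 2.7% of all probes were called upward, 2 in heterozygous embryos, where 0.708% were, and 5 in wildtype embryos, where 1.24% were. Differences between these counts were not tested.

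Of 9 measured genes that respond to glucocorticoids, 0 were called in the mean heat response, which called 11.9% of all probes. None was called in null, heterozygous or wildtype embryos either, where 5.2%, 2.27% and 3.01% of all probes were. At these shares 9 genes are too few for 0 calls to set the list apart from other probes. The list's median in the mean response was 0.09, against -0.00082 over all probes. The nearest to the threshold was Errfi1, a feedback inhibitor of EGF receptor signalling, at 0.22 ± 0.08 (limma adjusted p = 0.0916). Tsc22d3, the glucocorticoid-induced leucine zipper, was at -0.03 ± 0.07, and Fkbp5, a co-chaperone of the glucocorticoid receptor, at 0.09 ± 0.11.

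**Figure D4:**
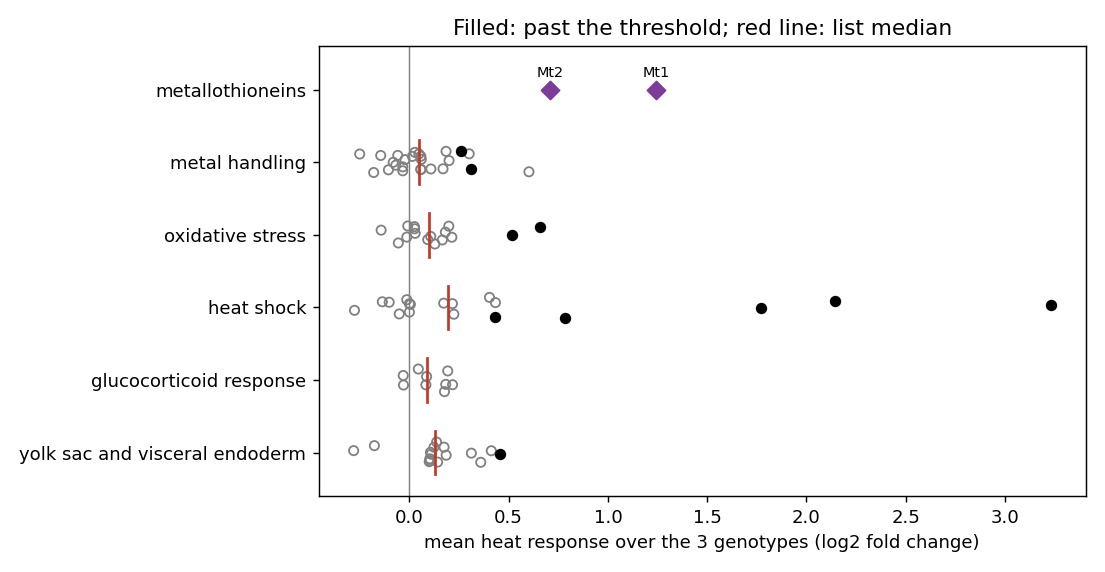
Mean heat response over the 3 genotypes (log2 fold change) of Mt1 and Mt2 (diamonds) and of each measured member of the lists named on the vertical axis; filled circles passed the threshold and red lines mark list medians. Mt1 at 1.24 and Mt2 at 0.71 lie to the right of all members of the metal-handling and glucocorticoid lists, and Hmox1 at 0.66 is the nearest member of the oxidative stress list.

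Since Mt1 and Mt2 are known to be expressed in the yolk sac of mouse embryos, 16 measured markers of yolk sac and visceral endoderm were read beside them. Ttr (transthyretin), Apoa1 (apolipoprotein A-I) and Afp (alpha-fetoprotein) had a value in every pool. Amn (amnionless) was dimmer, with a value in 3 of 4 null and 3 of 4 heterozygous control pools. Its lowest deposited value was 0.0916, in a null heat pool. Their list was not shifted one way by heat: its median was 0.42 in null, 0.59 in heterozygous and -0.64 in wildtype embryos. Lrp2, the endocytic receptor megalin, rose by 0.46 ± 0.10 in the mean response (limma adjusted p = 0.00448) and by 0.62 ± 0.18 in null embryos. Apoa2, another apolipoprotein, was the other call, at -1.40 ± 0.35 in wildtype embryos (limma adjusted p = 0.031). The summed level of the 12 markers with a value on every array ran between 210 and 327 in null heat pools against 147 and 274 in null control pools. It ran between 257 and 408 in heterozygous heat pools against 143 and 290 in heterozygous control pools, and between 142 and 338 in wildtype heat pools against 229 and 349 in wildtype control pools. The sums overlapped between baths in every genotype.

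The mean log2 level of these 12 markers was taken as a yolk sac score. Among the 11 heat pools Mt1 followed it, with r = 0.80 (permutation p = 0.00882, adjusted p = 0.0265) and rho = 0.855 (permutation p = 0.00146, adjusted p = 0.00876). Without wildtype heat B and C r was 0.86. Among the 12 control pools r was 0.54 (permutation p = 0.0705, adjusted p = 0.0846) and 0.32 without heterozygous control D and null control B. With the group means taken out, r for Mt1 was 0.71 in heat pools and 0.72 in control pools, so the relation was about as close in either bath within groups. For Mt2 r was 0.33 in heat pools (permutation p = 0.321). In control pools it was 0.55 (permutation p = 0.0666, adjusted p = 0.0846), with rho 0.65 (permutation p = 0.0265, adjusted p = 0.0531). With the group means taken out, r for Mt2 was 0.28 in heat pools and 0.59 in control pools. Wildtype heat A had a score of 3.78 and wildtype heat B, C and D had 2.42, 2.29 and 2.48, so pool B combined a low score with high Mt1 and Mt2.

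With the score as a covariate, added after the data were seen, the Mt1 rise was 1.30 in null, 0.96 in heterozygous and 1.30 in wildtype embryos and 1.19 on average (limma adjusted p = 2.06e-10). The difference between null and wildtype Mt1 responses was then 0.0035 (limma adjusted p = 0.997), against 0.42 without the covariate. Among heat pools, Mt1 in null minus wildtype embryos was then 0.03, against 0.31 without the covariate, and heterozygous minus wildtype was -0.08, against 0.26. Among control pools, Mt1 in null minus wildtype embryos was 0.03, against -0.11. For Mt2, heterozygous minus wildtype heat pools was -0.14, against 0.08. None of these passed with or without the score, and the order of groups given above was therefore not kept at equal score. The Mt2 change was 0.89, 0.44 and 0.68, and 0.67 on average (limma adjusted p = 0.000268), with the same calls as without the score. The mean heat rise of Mt1 was 1.19 with the score in the fit, against 1.24 without it. The score comes from the same arrays, and its group means differed between baths. They were 3.54 in heat against 3.07 in control for null, 3.71 against 2.97 for heterozygous and 2.74 against 3.48 for wildtype pools. The part of yolk sac content in the heat rise and in the genotype differences was not tested.

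**Figure D5:**
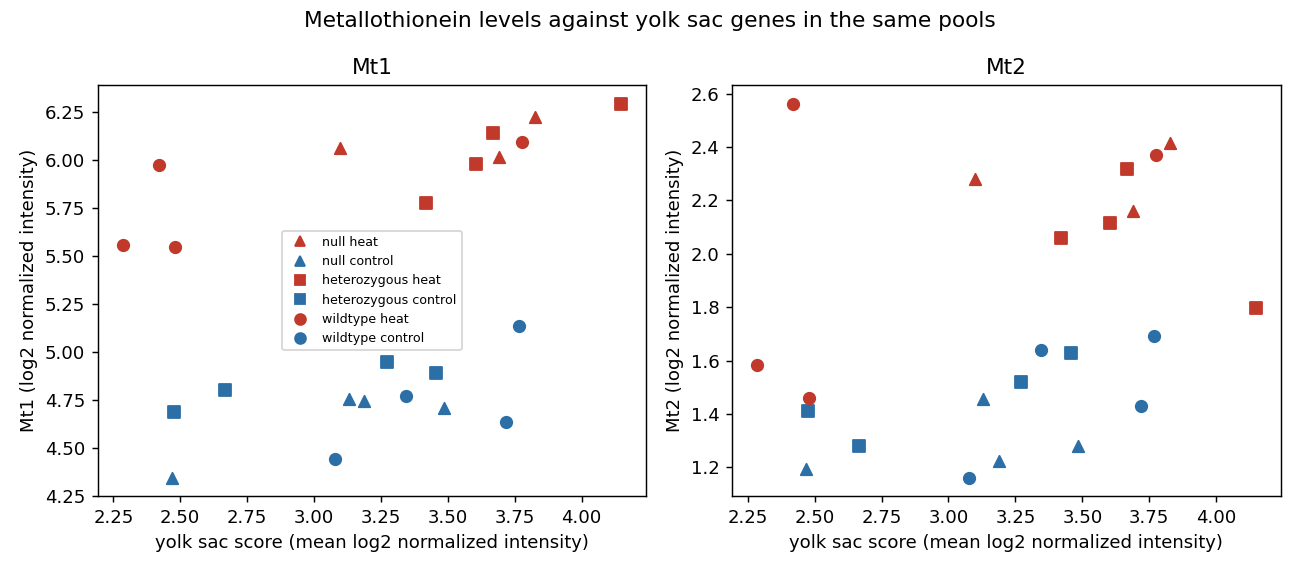
Mt1 (left) and Mt2 (right), as log2 normalized intensity, against the yolk sac score (mean log2 normalized intensity of 12 markers) in 23 pools, with symbols for genotype, red for heat and blue for control. Heat pools lie above control pools at any score for Mt1, and Mt1 climbs with the score among heat pools (r = 0.80).

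Markers of other tissues were read in the same way. Of 5 measured primitive red cell genes 1 rose in the mean response, Epor, the erythropoietin receptor, by 0.38 ± 0.12 (limma adjusted p = 0.0344), where 4.98% of all probes rose and 6.89% fell. Of 4 measured trophoblast and decidua genes limma called 0 in that response, which called 11.9% of all probes. The trophoblast marker Tpbpa was empty in all control pools and between 0.0846 and 0.272 as deposited in heat pools. The decidual marker Prl8a2 ran between 0.16 and 2.91 as deposited in heat pools. It was empty in the null control pools, and read 1.26 in the 1 wildtype control pool with a value. In the 2 heterozygous control pools with a value it read 0.458 and 2.81. Of 5 measured genes of the embryo proper limma likewise called 0, and both Sox2, of the neural plate, and Meox1, of the somites, were present in every group. The labelled whole embryo thus carried markers of embryo, yolk sac and blood. Whether pools also held decidua or trophoblast was not tested.

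Of the other metallothionein genes, Mt4 had a probe that was empty in all 12 control pools and read 0.0215 to 0.215 as deposited in heat pools, so it was not tested. No probe is listed for Mt3. Within 200 kb of Mt1 or Mt2, 4 other genes were tested. Bbs2, a Bardet-Biedl syndrome protein of the ciliary BBSome, fell by 0.41 ± 0.07 in the mean response (limma adjusted p = 0.000323), and by 0.46 ± 0.12 in heterozygous embryos. Nudt21, a subunit of the pre-mRNA cleavage factor, was at -0.02 ± 0.12, Nup93, a nuclear pore protein, at -0.10 ± 0.08, and Slc12a3, the thiazide-sensitive sodium chloride cotransporter, at -0.003 ± 0.08. None of the tested neighbours passed the threshold upward. In the mean response 4.98% of all probes rose and 6.89% fell, and in heterozygous embryos 1.56% fell. At these shares 4 genes are too few to set the neighbours apart from other probes.

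Across all 23 pools, the named genes whose levels were most like Mt1 were Tcte3 (r = 0.944), Crk (0.935), Krt19 (0.932), Sft2d3 (0.911) and Ppil4 (0.903), among 12390 probes compared. Mt2 was 11th, at 0.886. For Mt2 the closest were H2-D1 (0.888), Mt1 (0.886), Adat2 (0.885), Ing5 (0.878) and Rpl31-ps12 (0.865). These values describe levels that share the contrast between baths and the arrays. All 5 genes closest to Mt1 rose in the mean response, between 0.36 for Ppil4 and 2.98 for Tcte3, which encodes a dynein light chain of testis. Krt19, a keratin of simple epithelia, rose by 0.64 ± 0.06, and Crk, a signalling adaptor, by 0.92 ± 0.07.

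With the group means taken out, the order was another. The variation of Mt1 between pools of the same group was most like that of Apoc2 (r = 0.817), 1810019D21Rik (0.813), Mospd3 (0.761), Apoa2 (0.753) and Fmr1nb (0.747). Apoc2 and Apoa2 are apolipoproteins and belong to the yolk sac markers above. Mt2 came 52nd, at 0.647. Mt2 was most like Aox4 (0.871), Snrpg (0.868), Abhd11os (0.861), Atp6v1f (0.856) and Tnfrsf8 (0.854), with Mt1 in place 501, and none of those 5 genes passed the threshold in the heat response.

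The deposited columns differ by bath in ways that touch many genes but left these probes complete. Each control column has between 7576 and 11666 empty cells and no heat column has any, while 129 to 203 cells per heat column carry a code for missing. Mt1 and Mt2 have a value in all 23 columns. Empty control cells were rare at their brightness, 0.868% for probes with a deposited heat median from 32 to 64, as for Mt1, and 0.992% from 4 to 8, as for Mt2, against 42.4% for the brightest probes. The highest value on an array ran between 181.5 and 488.3. The handling of the columns and the bath cannot be told apart. The genotype labels were not checked with Trp53, the p53 gene, for which no probe was tested.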

How the data were processed

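RNA of 23 embryo pools was labelled as biotin cRNA and measured on CodeLink 1-colour arrays, per the labels' protocols. The deposited values are linear intensities, 1 column a sample. What the authors used as scanner, background step, normalization and spot filter is not given in these sources. Here, empty and coded cells counted as missing. The lowest values of an array were raised to the 5th percentile of its positive ones, and log2 values were quantile-normalized, with the target taken over 18702 probes complete on all arrays, because array medians spanned 0.336 on the log2 scale, over a limit of 0.1. Tests covered probes with 3 or more values per group that exceeded the 40th percentile of the array on 3 or more arrays. limma 3.58.1 in R 4.3.3 fitted 6 group means, with eBayes and an intensity trend, two-sided, after a check on simulated data. Permutation tests used scipy 1.17.1. The number of arrays limits the precision. Symbols came from GEO's platform annotation (21615 probes with 1 symbol, 681 with several, 13931 with none listed; 21487 matched by gene ID to RefSeq). Named genes are, per list and comparison, at most 4 of smallest adjusted p past the threshold (or the 2 of smallest p), the 5 of highest r, all genes within 200 kb, defining markers, Hspa1a, Hspb1 and Hmox1. A few further list members (Gclm, Nqo1, Tsc22d3, Fkbp5) were named after their values were seen. Members and lists were chosen with earlier results of these data known. Alternatives covered normalization, floor, filter, trend, array weights, fit per comparison, pool letter as block, each pool left out and 2 covariates added later.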

Additional observations from a re-analysis of the deposited data

Results flagged for a closer look

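Mt1 in null control pool B stood apart from the other pools of its group. After normalization it read 20.3, against 26.1, 26.8 and 27.0 in null control pools A, C and D. Its gap to the nearest pool was larger than Dixon's 95% limit of 0.829 of the range for 4 samples. As deposited it read 19.8, against 26.9, 27.5 and 30.5, and the gap stayed under that limit. Mt2 was also lowest in this pool, at 2.29, and its yolk sac score of 2.47 was the lowest of the group. Leaving it out did not end the call of Mt1 in null embryos. By chance about 1 group in 20 would be marked so.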

How the results depend on the processing

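The mean rise of Mt1 over the genotypes stayed past the threshold under all 32 alternatives, between 1.14 and 1.28, as did that of Mt2, between 0.65 and 0.77. The rise of Mt1 in heterozygous and wildtype embryos also stayed past it. With 1 pool left out at a time, the Mt1 rise ran between 1.37 and 1.51 in null, 1.14 and 1.31 in heterozygous and 0.95 and 1.17 in wildtype embryos, and the Mt2 change between 0.93 and 1.06, 0.53 and 0.70, and 0.33 and 0.69. Exact permutation tests within a genotype gave p = 0.0571 for the null rises of Mt1 (1.47) and Mt2 (1.0), the smallest that 3 against 4 pools allow, and p = 0.0286 for Mt2 in heterozygous embryos (0.61). With array weights Mt2 passed in wildtype embryos, at 0.56 (adjusted p = 0.0452). The estimation of these weights gave a convergence warning, which limits all values from that setting. As deposited, Mt1 in null against wildtype heat pools passed, at 0.53 (adjusted p = 0.0494). The cause of these changes was not tested. Of same-letter heat and control pools, 8 of 11 pairs correlated over 0.1 (-0.114 to 0.372). Pools of different letters were not compared, so these values do not decide whether letters pair samples. The main fit did not pair them. With the letter as a replicate block the mean change was 1.24 for Mt1 and 0.70 for Mt2, and it changed no call of either gene. Counts of called probes varied more: 275 (without null heat B) to 5142 (highest array value as a covariate) against 1183 in null, 68 (only the arrays compared) to 1255 against 516 in heterozygous, 354 (without wildtype control D) to 1970 (as deposited) against 685 in wildtype embryos, 2191 to 5939 against 2699 for the mean response, 1 to 1577 against 123 for null and wildtype heat pools, and 288 (without null control B) to 6035 (array weights) against 1828 for null and wildtype control pools. For the difference of null and wildtype responses they ran between 3 (yolk sac score as a covariate) and 623 against 222.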
